A study of Mus musculus with 6 samples.

Results

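The clustered protocadherins are cell surface adhesion proteins of neurons that are encoded side by side in the alpha, beta and gamma clusters. They were taken as every gene whose symbol starts with Pcdha, Pcdhb or Pcdhg followed by a number, or by a, b or c and a number. The rule found 58 of the 56923 genes counted in the prefrontal cortex of *Pla2g4e* knockout (KO) and wild-type (WT) mice, 14 in the alpha, 22 in the beta and 22 in the gamma cluster. Symbols came from GENCODE M21, in which 2 of the 14 alpha genes share *Pcdha11* and no member is named *Pcdha10*. The 2 are told apart by their identifiers, ENSMUSG00000007440 and ENSMUSG00000102206. Either may have another symbol in GENCODE M31, which was used for the counts. On GRCm39 the alpha genes span chr18:37063237-37320714, the beta genes chr18:37397991-37657532 and the gamma genes chr18:37794846-37974926, all on the plus strand.

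Polyadenylated RNA was sequenced from 3 KO and 3 WT samples. KO mice carried the constitutive allele C57BL/6N-A tm1Brd Pla2g4e tm2a, a gene trap with *LacZ* that is predicted to abolish the product of *Pla2g4e*, which encodes an N-acyltransferase of the cytosolic phospholipase A2 family. WT mice carried no engineered allele that the labels name, and the study used littermates as controls in its other experiments. No treatment was given to either group in the labels, and the age is not given in the sources used here. Dissection for prefrontal cortex took tissue from the front of the brain.

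In textbook terms, each alpha and gamma gene joins its own first exon, which encodes the extracellular domain, to constant exons at the end of the cluster, while each beta gene is a lone exon. A neuron turns on a few alternate isoforms from promoters that CTCF and cohesin bring to distal enhancers, and the proteins bind matching proteins on a neighbouring membrane, so that sister branches of a neuron recognise and avoid each other. The C-type isoforms (*Pcdhac1*, *Pcdhac2*, *Pcdhgc3*, *Pcdhgc4* and *Pcdhgc5*) are regulated apart from the alternate isoforms and are known for wider expression across neurons.

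*Pla2g4e* itself had 88, 97 and 102 fragments in KO replicates 1 to 3 and 100, 138 and 168 in WT replicates 1 to 3. The counts cover all exons, and exons outside the trap can still be transcribed, so they are a weak check of the labels. In CPM (fragments per 1e6 fragments of the scaled library) the library labelled WT replicate 1, at 7.84, lay among the KO values of 5.95 to 8.12. The main counts of members and list genes below are therefore also given without it. The log2 fold change of *Pla2g4e* was -0.55 (SE 0.21) with a limma adjusted p-value of 0.635, and -0.76 without that library. Library totals ranged from 11792463 to 14594230 fragments, and 0.0528% to 0.0552% of the fragments fell on clustered protocadherins. Each group held 1 library with *Xist*, KO replicate 1 with 1387 CPM and the library labelled WT replicate 1 with 969, while the other 4 had 0.246 CPM or less. Without the library labelled WT replicate 1, *Xist* was thus present in a KO library but in no WT library. The values given without it therefore mix genotype with that difference.

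How much of each protocadherin could be counted was first read from the exon coordinates in the tables. A fragment over an exon shared by several genes was not counted, so the constant exons of the alpha and gamma clusters gave no fragments to any member. Each alpha gene shared at least 2860 bases with the 13 others, and 46.4% of the exon length of the median alternate alpha gene was covered by no other gene. That share was 55.2% for the median gamma A gene (a subfamily of 12 alternate gamma genes) and 55.0% for the median gamma B gene (the other 7). It was 47.2% for *Pcdhac1*, 51.4% for *Pcdhac2*, 61.5% for the median gamma C-type gene and 100% for 20 of the 22 beta genes. *Pcdhb21* and *Pcdhb22* overlap each other and kept 90.3% and 93.1%. The lowest share was that of *Pcdha4*, of whose 5768 bases 494 (8.56%) could give counts, since the predicted gene *Gm42416* covers 2410 bases of its first exon.

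**Figure D1:**
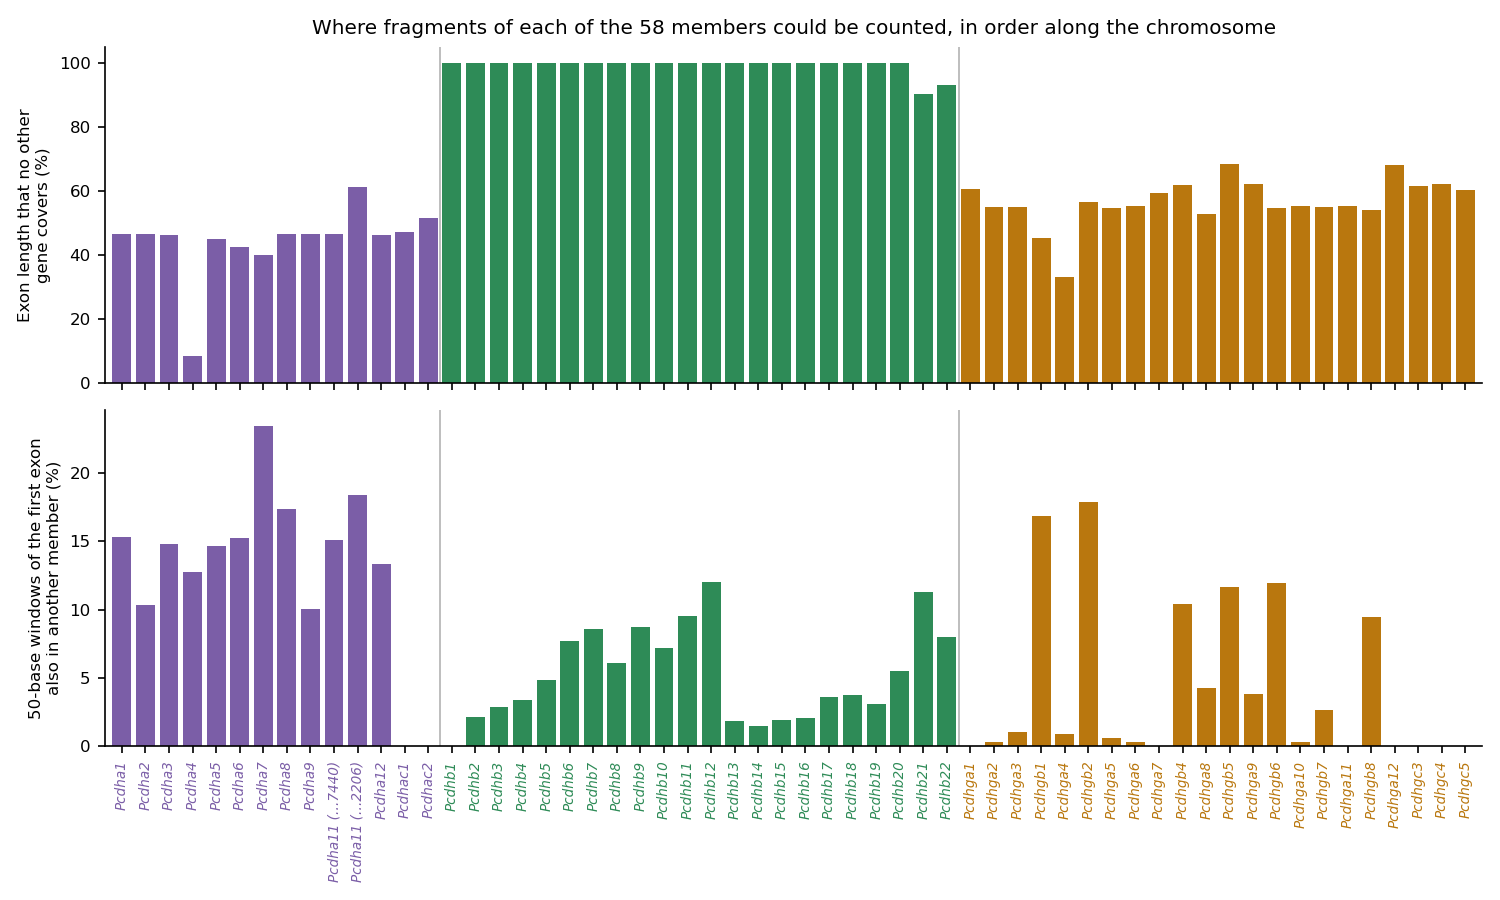
Upper bars give the percent of exon length that no other gene covers for each of the 58 members in chromosome order, and lower bars give the percent of 50-base windows of the first exon that recur in the first exon of another member; purple is alpha, green beta and gold gamma. *Pcdha4* stands lowest in the upper bars at 8.56%, and the 5 C-type isoforms are at 0 in the lower bars.

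Near-identical stretches within first exons are a second limit, because fragments that fit several places were not counted either. Among the 12 alternate alpha genes a median of 14.9% of 50-base windows (range 10.1% to 23.4%) recurred in another member. The medians were 4.26% for beta, 0.295% for gamma A (0 to 4.25%) and 11.6% for gamma B (2.67% to 17.9%). All 5 C-type isoforms were at 0. With 100-base windows the medians fell to 5.45% for alternate alpha and 3.14% for gamma B. Repeated windows thus bear most on alternate alpha and gamma B genes and not on the C-type isoforms.

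Levels were then compared between members per kb of exon that no other gene covers. The C-type isoform *Pcdhgc5*, whose protein binds GABA-A receptors, had the highest level, 24.2 ± 1.52 CPM per kb (SD, n = 6), with libraries from 22.5 to 25.9. *Pcdhgc3*, whose product binds the scaffold protein axin, was next at 17.6 ± 1.34 CPM per kb (15.8 to 19.5). *Pcdhac2*, needed for the tiling of serotonergic axons, followed at 11.2 ± 1.12 CPM per kb. The ranges of these 3 genes did not overlap each other or that of any other member.

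The remaining C-type isoforms had lower levels. *Pcdhgc4*, known for its role in neuron survival, ranked 18 of 56 at 2.59 ± 0.401 CPM per kb, and *Pcdhac1* ranked 46 at 0.844 ± 0.210. High levels were thus found in 3 of the 5 C-type isoforms. Together *Pcdhac2*, *Pcdhgc3* and *Pcdhgc5* took 36.1% to 40.2% of all clustered protocadherin fragments in a library. *Pcdhac2* alone took 51.4% to 56.8% of those of the alpha cluster, and *Pcdhgc5* took 30.3% to 34.6% of those of the gamma cluster.

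Among alternate isoforms the highest levels per kb of exon that no other gene covers were in gamma A. *Pcdhga11* was at 6.87 ± 0.306 CPM per kb (6.52 to 7.31) and *Pcdhga6* at 5.87 ± 0.431 (5.20 to 6.46). Their ranges did not overlap, whereas those of *Pcdhga3*, *Pcdhgb6*, *Pcdhga7* and *Pcdhb9*, next in the order at means of 4.31 to 3.96, did overlap. *Pcdhb9* had the highest level of the beta cluster, 3.96 ± 0.443 CPM per kb. Median levels per kb were 3.61 for gamma A, 2.04 for gamma B, 1.30 for beta and 0.884 for alternate alpha genes.

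The lowest tested members were *Pcdha8* at 0.130 ± 0.0805 CPM per kb, which had 1 to 8 fragments in a library, and *Pcdhgb8* at 0.310 ± 0.122, which had 4 to 13. *Pcdhb4* was the lowest tested beta gene at 0.708 ± 0.198 CPM per kb. *Pcdha4* (0, 4 and 3 fragments in KO, 0, 2 and 0 in WT) and *Pcdhb1* (3, 2 and 1 in KO, 2, 1 and 4 in WT) did not reach 6 fragments in any library and were not tested. In the 3 libraries without a *Pcdha4* fragment, that count of 0 allowed a level of up to 0.410 to 0.477 CPM per kb, which is within the levels of other alternate alpha genes. Such limits cover counting error only.

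**Figure D2:**
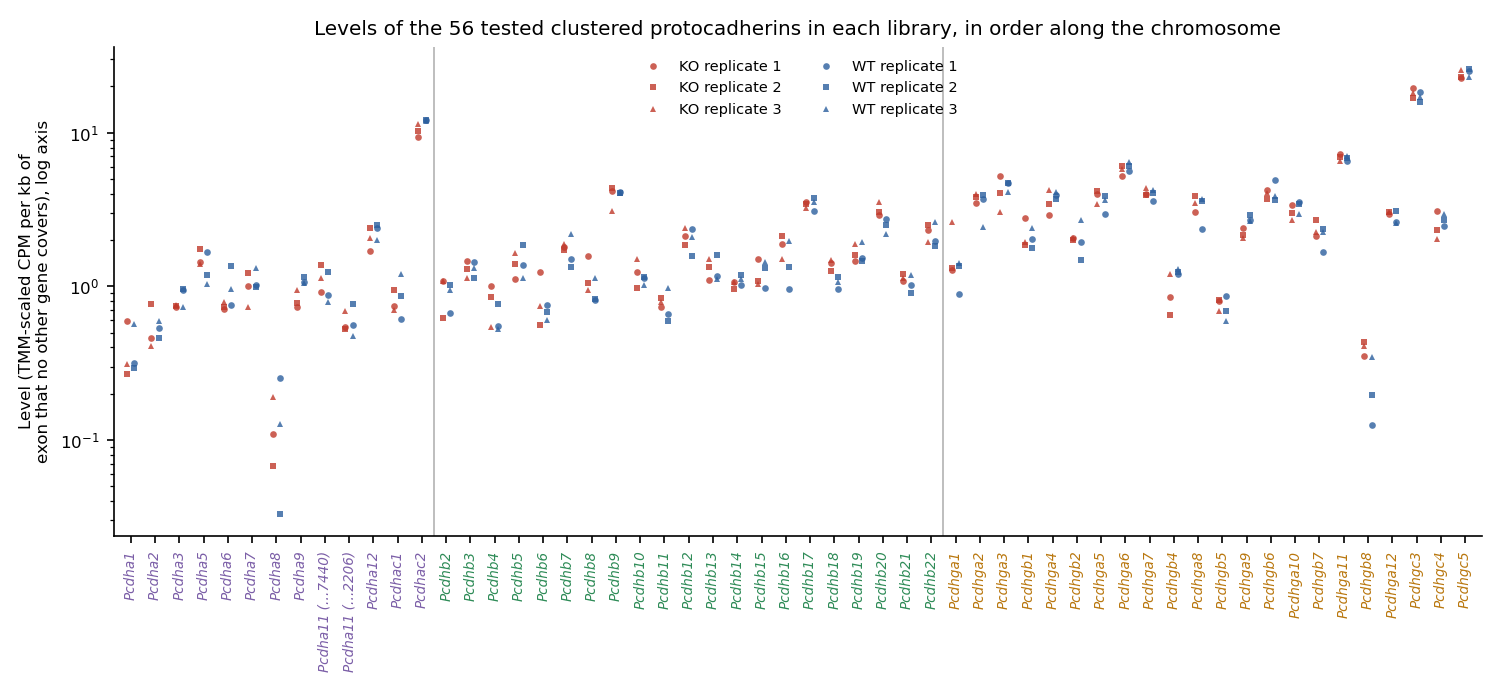
Each point is the level of a tested member in a library (TMM-scaled CPM per kb of exon that no other gene covers, log axis), with members in chromosome order and vertical lines between the alpha, beta and gamma clusters. *Pcdhac2*, *Pcdhgc3* and *Pcdhgc5* lie at 9.38 or above in all 6 libraries, and KO (red) and WT (blue) points of most members mix.

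Level and position along a cluster were related weakly. Over the 11 tested alternate alpha genes Spearman's rho of level per kb with order from the upstream end was 0.45, with 0.27 to 0.45 in single libraries. It was 0.44 over 21 beta genes (0.35 to 0.46) and -0.09 over 19 alternate gamma genes. In the alpha cluster *Pcdha1*, the most upstream gene, was at 0.393 CPM per kb and *Pcdha12*, the last alternate gene, at 2.18. These are descriptions over genes that share libraries, not tests.

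The set of isoforms was compared between libraries over the 56 tested members. Pearson's r of log2(CPM + 0.5) across members was 0.962 to 0.972 between libraries of the same group and 0.962 to 0.971 between a KO and a WT library. Without the C-type isoforms the ranges were 0.939 to 0.957 and 0.939 to 0.956. These ranges overlapped almost wholly. These points share libraries and gene lengths, and the values are a description across genes.

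KO was compared with WT for each protocadherin in a fit over all 19084 genes tested. None of the 56 members had an adjusted p-value under 0.05 (limma-voom), against 0.0% of all genes tested, and the lowest adjusted p-value of a member was 0.635. At an unadjusted p under 0.05 limma-voom gave 4 members (7.14%), with 2 higher and 2 lower in KO, against 7.82% of all genes tested. Over all genes 4.38% were higher and 3.44% lower at that threshold. The edgeR quasi-likelihood test also gave 4 at that threshold, beside 7.90% of all genes, and DESeq2 gave 0, beside 4.73%, both with 0 adjusted. Without the library labelled WT replicate 1 the count was 1, *Pcdhb20*, beside 5.38% of all genes, while the log2 fold changes of *Pcdhac2*, *Pcdhb18*, *Pcdhb20* and *Pcdhga9* were -0.22, 0.33, 0.42 and -0.33. In the fit to all 6 libraries the share of members was close to that of all genes.

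The CPM values of the groups did not overlap in some members. KO lay above WT in 3 of the 56, beside 6.72% of all genes tested, and below WT in 4, beside 6.29%. Without the library labelled WT replicate 1, KO lay above in 5 and below in 6, beside 11.6% and 10.6% of all genes. Fold changes lay on both sides of 0, with 32 members higher and 24 lower in KO. Without the library labelled WT replicate 1, and likewise without WT replicate 2, 27 of the 56 were higher, so the majority changed side. Their median log2 fold change was 0.03, beside 0.01 over all genes tested. It was -0.01 without the library labelled WT replicate 1, -0.01 without WT replicate 2 and 0.08 without WT replicate 3.

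**Figure D3:**
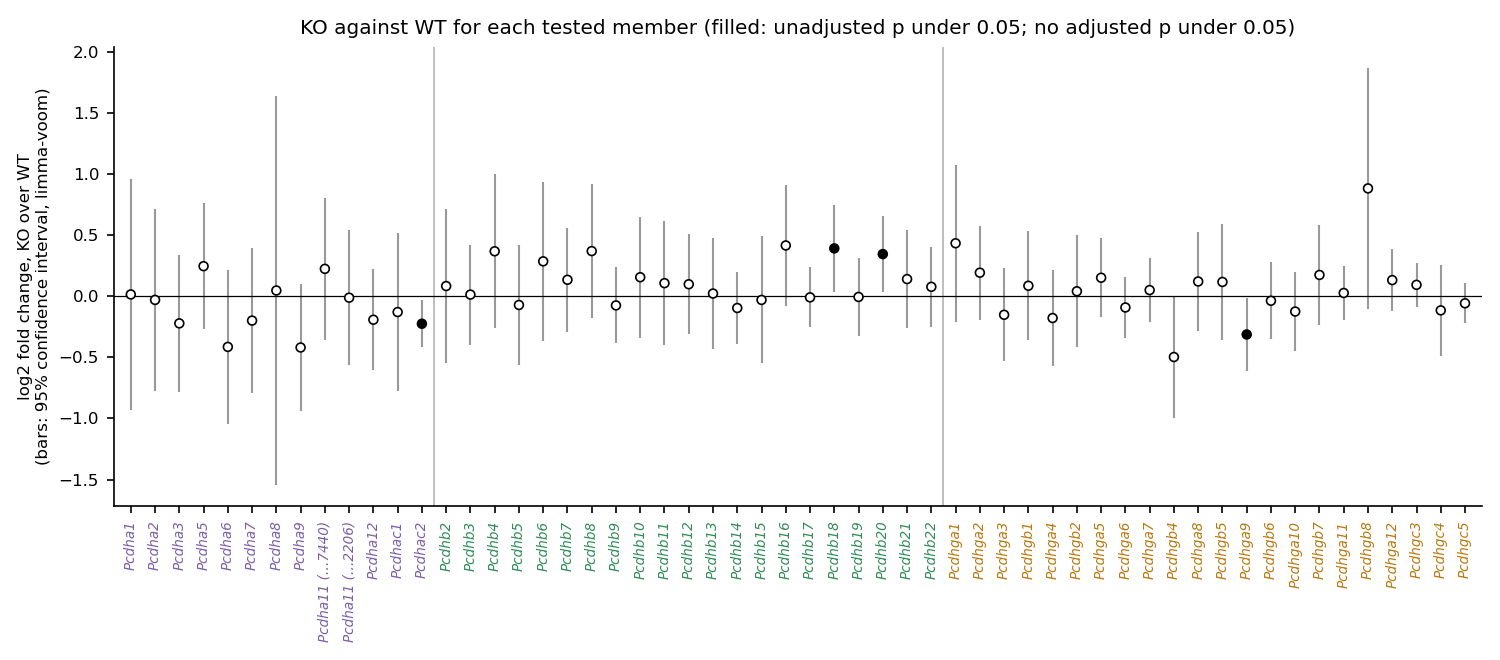
Points give the log2 fold change of KO over WT for the 56 tested members in chromosome order, with 95% confidence intervals from limma-voom; filled points have an unadjusted p under 0.05. The 4 filled points are *Pcdhac2*, *Pcdhb18*, *Pcdhb20* and *Pcdhga9*, and the intervals are widest for *Pcdha8* and *Pcdhgb8*.

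In the alpha cluster 4 of 13 tested genes were higher and 9 lower in KO, with a median log2 fold change of -0.13. Without the library labelled WT replicate 1, 3 alpha genes were higher and 10 lower, against 13 and 8 of the beta and 11 and 11 of the gamma genes. The cluster summed to 53.0, 60.3 and 60.4 CPM in the KO libraries against 64.4, 67.1 and 63.0 in the WT libraries. Every KO sum lay below every WT sum, and the KO mean was 89.3% of the WT mean. *Pcdhac2* alone gave 51.4% to 56.8% of the alpha fragments. Over the 11 alternate alpha genes the sums overlapped, at 22.7, 26.7 and 24.2 CPM in KO against 26.3, 28.1 and 24.2 in WT. In bulk tissue, fewer neurons that use the alpha cluster and less RNA per neuron cannot be told apart. Summed markers of neurons ranged from 12304 to 13284 CPM in KO and from 12972 to 14012 CPM in WT, with 9 of 12 lower in KO, and their part in the alpha values was not tested.

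*Pcdhac2* was the alpha gene of lowest p-value. It had 28.4, 31.2 and 34.4 CPM in the KO libraries against 36.5, 36.8 and 35.8 in the WT libraries. All KO values lay below all WT values, and the WT values were close together. The log2 fold change came to -0.23 (SE 0.09), with an unadjusted limma p of 0.0263 and an adjusted p of 0.635. It was -0.15 in the 4 libraries without *Xist*. The rest of the alpha cluster showed less, with 24.5 ± 2.02 CPM in KO and 26.2 ± 1.95 in WT (SD, n = 3 each) summed over the 11 alternate genes. Of these, *Pcdha9* alone had groups that did not overlap, at 2.03 ± 0.275 CPM in KO and 2.71 ± 0.142 in WT. *Pcdhac1* had 1.89, 2.43 and 1.80 CPM in the KO libraries against 1.57, 2.21 and 3.06 in the WT libraries, with mixed order and a log2 fold change of -0.13 (SE 0.30).

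In the beta cluster 15 of 21 tested genes were higher and 6 lower in KO, with a median log2 fold change of 0.10. Beta proteins lack the constant intracellular domain of the alpha and gamma proteins. Their summed CPM was 146 ± 3.18 in KO against 136 ± 9.20 in WT, and the groups overlapped. *Pcdhb20* had 10.3, 10.8 and 12.5 CPM in the KO libraries against 9.72, 8.92 and 7.77 in the WT libraries. Its groups did not overlap, and the log2 fold change came to 0.35 (SE 0.14) with an unadjusted limma p of 0.0318 and an adjusted p of 0.635. *Pcdhb18* had 7.10, 6.37 and 7.50 CPM in the KO libraries against 4.86, 5.81 and 5.34 in the WT libraries. Again all KO values lay above all WT values, with a log2 fold change of 0.39 (SE 0.16), an unadjusted limma p of 0.0328 and an adjusted p of 0.635. In the order of beta genes *Pcdhb19* alone lies between these 2, for which the log2 fold change came to -0.01 (SE 0.15).

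In the gamma cluster 13 of 22 genes were higher and 9 lower in KO. The median log2 fold change was 0.05, or 0.007 without the library labelled WT replicate 1. The summed CPM was 340 ± 8.29 in KO against 340 ± 4.88 in WT. The gamma A gene *Pcdhga9* had 8.31, 7.54 and 7.19 CPM in the KO libraries against 9.41, 10.1 and 9.26 in the WT libraries. Its KO values were all lower, with a log2 fold change of -0.31 (SE 0.14), an unadjusted limma p of 0.0409 and an adjusted p of 0.635. The gamma B genes *Pcdhgb4* and *Pcdhgb8* had groups that did not overlap, in opposite directions. *Pcdhgb4* had 3.04, 2.35 and 4.30 CPM in the KO libraries against 4.31, 4.42 and 4.63 in the WT libraries. *Pcdhgb8* had 13 fragments in each KO library and 4, 6 and 11 in WT, and its 95% interval on the log2 scale ran from -0.10 to 1.87.

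Of the gamma C-type isoforms, *Pcdhgc5* and *Pcdhgc3* had the narrowest intervals of all tested members. *Pcdhgc5* measured 109 ± 7.47 CPM in KO against 113 ± 7.28 in WT (SD, n = 3 each), a log2 fold change of -0.06 with a 95% interval of -0.22 to 0.11. *Pcdhgc3* measured 61.5 ± 4.67 CPM in KO against 57.7 ± 4.36 in WT, a log2 fold change of 0.09 with an interval of -0.09 to 0.28. *Pcdhgc4* was at 8.66 ± 1.95 and 9.36 ± 0.830 CPM, a log2 fold change of -0.12 with an interval of -0.49 to 0.26. In all 3 the groups overlapped. Of the gamma cluster *Pcdhgc5* took 32.1% ± 1.80 in KO and 33.3% ± 1.68 in WT.

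**Figure D4:**
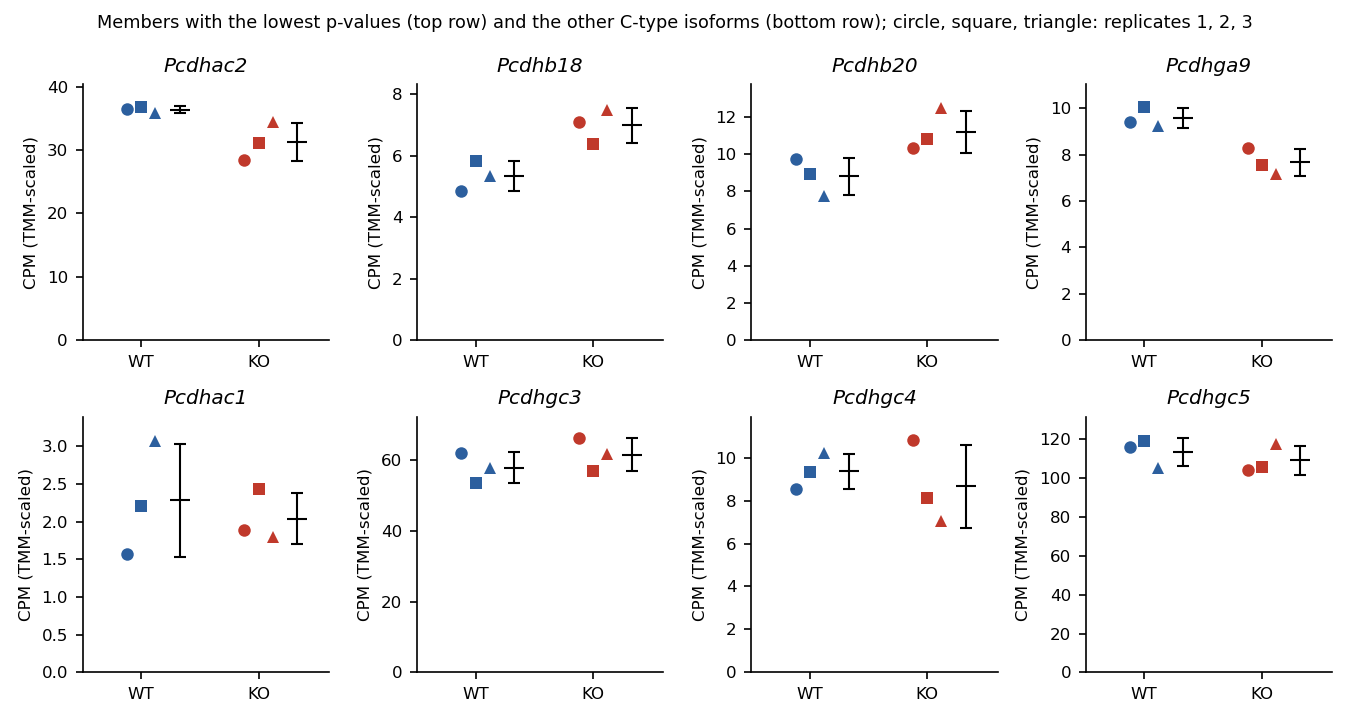
TMM-scaled CPM of the 4 members of lowest p-value (upper panels) and the other C-type isoforms (lower panels) in each library, with circles, squares and triangles for replicates 1 to 3 and black bars for the mean ± SD of 3 libraries. KO lies below WT for *Pcdhac2* and *Pcdhga9* and above for *Pcdhb18* and *Pcdhb20*, while the groups overlap in the 4 lower panels.

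Over all tested members the summed CPM was 543 ± 7.53 in KO against 541 ± 6.80 in WT. The precision allowed doubling and halving to be bounded for most genes. The 95% interval lay within doubling and halving for 52 of the 56 members, and within 0.5 on the log2 scale for 19. The 4 whose interval reached doubling or halving were *Pcdha6*, *Pcdha8*, *Pcdhga1* and *Pcdhgb8*. The median SE of the log2 fold change was 0.193 for members and 0.142 for all genes tested. The median biological coefficient of variation (the spread between libraries of a group beyond counting error) was 0.142 for members and 0.119 for the 15938 genes in the same CPM range. That range ran from 0.322 CPM (*Pcdha8*) to 111 CPM (*Pcdhgc5*), and its genes were not matched to members by level. The part of level in the difference was not tested.

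The other genes of the pathway were read from lists of regulators and partners in the same fit. No gene of these lists had an adjusted p-value under 0.05 (limma-voom). Of their 51 genes 4 had an unadjusted p under 0.05, beside 7.82% of all genes, and 1 without the library labelled WT replicate 1, beside 5.38%. Of 11 CTCF and cohesin genes, 8 were higher in KO (9 without that library), and the median log2 fold change was 0.07 (0.04 without it). *Ctcf*, whose protein binds the protocadherin promoters, measured 69.9 ± 1.29 CPM in KO against 68.4 ± 5.12 in WT, with overlapping groups and a log2 fold change of 0.03 (SE 0.07). *Mau2*, part of the complex that loads cohesin, was the list's gene with an unadjusted p under 0.05, at 99.5 ± 4.16 and 89.7 ± 2.78 CPM (log2 fold change 0.15, SE 0.07, unadjusted limma p 0.0439, adjusted p 0.635).

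Of 12 genes for silencing and DNA methylation factors, 11 were higher in KO, with a median log2 fold change of 0.08 (0.05 without the library labelled WT replicate 1). *Smchd1*, a chromatin protein that represses clustered protocadherins and the inactive X chromosome, had 52.6, 49.8 and 52.6 CPM in the KO libraries against 45.9, 47.1 and 45.7 in the WT libraries. Its groups did not overlap (log2 fold change 0.16, SE 0.07, unadjusted limma p 0.0420, adjusted p 0.635). *Wiz*, a zinc finger partner of the histone methyltransferases encoded by *Ehmt1* and *Ehmt2*, measured 60.0 ± 1.02 CPM in KO against 56.2 ± 2.36 in WT, a log2 fold change of 0.09 (SE 0.07). KO lay above WT in 4 of the 12 (*Smchd1*, *Wiz*, *Ehmt1* and *Dnmt3a*), beside 6.72% of all genes tested. Without the library labelled WT replicate 1, 10 of the 12 were higher and KO again lay above WT in 4, beside 11.6%. Differences were small in size, and the largest of the 4 was *Smchd1*.

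Of 16 genes for proteins that bind, process or act downstream of protocadherins, 3 were higher and 13 lower in KO (5 and 11 without the library labelled WT replicate 1), with a median log2 fold change of -0.08. *Prkca*, a protein kinase C, had 317, 279 and 261 CPM in the KO libraries against 254, 230 and 251 in the WT libraries, without overlap (log2 fold change 0.22, SE 0.08, unadjusted limma p 0.0150, adjusted p 0.635). Without KO replicate 1, the highest library, the log2 fold change was 0.14. *Rac1*, a GTPase of actin remodelling, measured 217 ± 3.01 CPM in KO against 240 ± 12.9 in WT, also without overlap. Its log2 fold change was -0.14 (SE 0.06, unadjusted limma p 0.0431). KO lay below WT in 3 of the 16 (*Wasf1*, *Rac1* and *Nlgn2*), beside 6.29% of all genes tested. It lay above in 1 (*Prkca*), beside 6.72%. Without the library labelled WT replicate 1 the counts were again 3 and 1, beside 10.6% and 11.6%. Among 12 non-clustered protocadherins 4 were higher and 8 lower (5 and 7 without that library), and 0 had an unadjusted p under 0.05 by limma-voom.

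**Figure D5:**
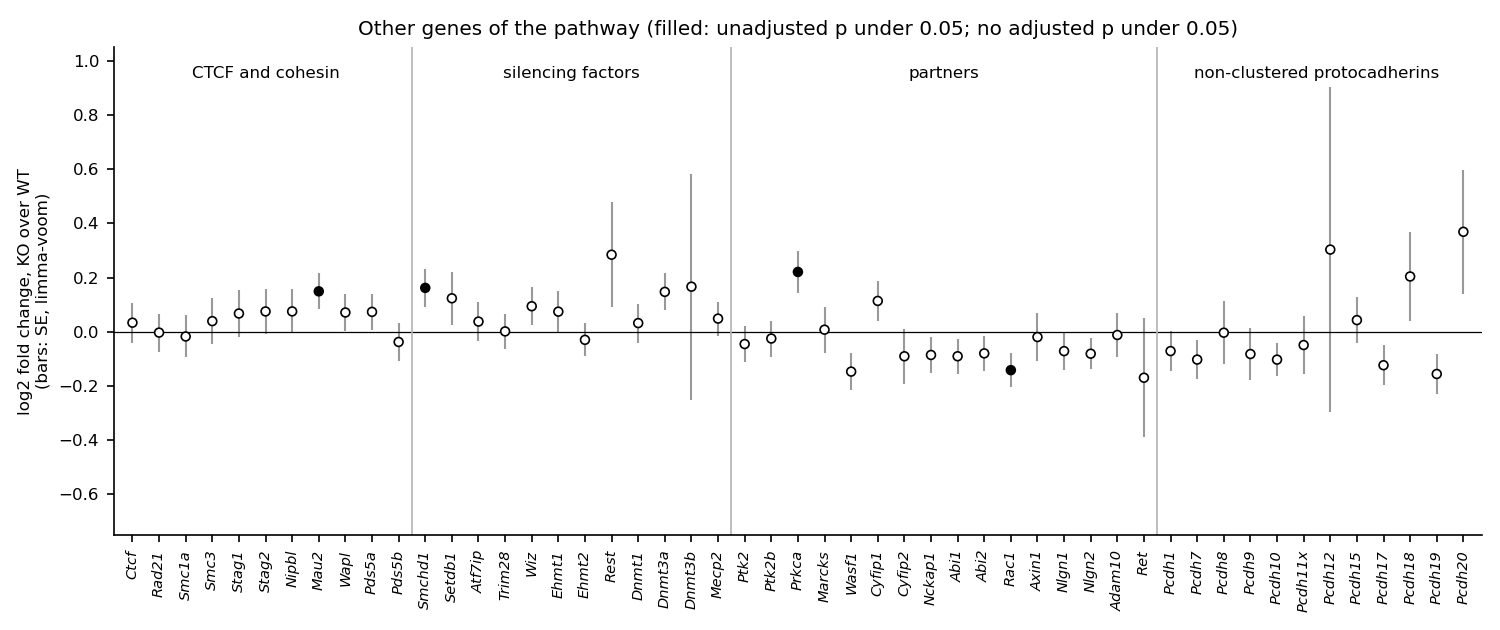
Points give the log2 fold change of KO over WT with its SE from limma-voom for 51 genes in 4 lists: CTCF and cohesin, silencing factors, partners and non-clustered protocadherins. The 4 filled points have an unadjusted p under 0.05 (*Mau2*, *Smchd1*, *Prkca* and *Rac1*), and silencing factors lie mostly above 0 while partners lie mostly below.

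Markers of other cells differed between libraries beside these results. All 10 striatal neuron markers, or 7 without the library labelled WT replicate 1, were higher in KO (median log2 fold change 0.36, or 0.20 without it), with summed levels of 343 to 451 CPM in KO and 256 to 429 in WT, the library labelled WT replicate 1 and WT replicate 2 being the low ones. Of 10 oligodendrocyte markers 9 were higher in KO (8 without the library labelled WT replicate 1), with a median log2 fold change of 0.19 (0.05 without it) and sums of 2343 to 2721 CPM in KO and 1814 to 3009 in WT. Neuron markers had a median log2 fold change of -0.13. Astrocyte markers had a median of 0.06, or 0.13 without the library labelled WT replicate 1. The fitted fold change was above 0 for all 10 astrocyte markers (9 without that library). Of 10 microglia and 10 endothelial markers the fitted fold change was above 0 for 3 each (5 and 4 without that library). Of 8 choroid plexus markers 6 were tested, with 4 above 0 and 1 without that library. In each of these lists the summed ranges overlapped, no marker was called after adjustment, and their part in the protocadherin values was not tested. Neuron markers were present in all libraries, and 2 of the 12 had an unadjusted limma p under 0.05 (*Snap25* and *Stmn2*, log2 fold changes of -0.19 and -0.21), beside 7.82% of all genes.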

How the data were processed

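The deposited tables hold unnormalised counts of fragments for every gene, with a table for each sample. For these the authors aligned polyA libraries with STAR 2.7.9a and, per the file headers, counted them with featureCounts 1.6.0 by strand over GENCODE M31 exons on GRCm39. An older build and annotation are named in the study's methods. Fragments over several genes or places were not counted. Samples were grouped by title, and the labels do not say that they come from separate animals. *Xist* sets replicate 1 of each group apart from replicates 2 and 3, and counts of each pair in a group varied beyond sampling (chi-square over its degrees of freedom 3.59 to 8.84). P-values measure the spread between these samples, which for replicates 2 and 3 may be technical.

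Symbols were matched by gene ID to GENCODE M21 (52073 of 56923). Genes with at least 6 fragments in 1 library were scaled by TMM (edgeR 4.0.16) and tested with voom and limma 3.58.1 (R 4.3.3), as in the study, two-sided, with Benjamini-Hochberg adjustment over all genes and a threshold of 0.05 set here. Fold changes are log2(KO/WT). Levels per kb used exon length that no other gene covers, from the exon coordinates in the tables. Repeated windows came from M21 transcripts on GRCm38.

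Named were *Pla2g4e*, the C-type isoforms, the highest and lowest level per cluster, members with an unadjusted p under 0.05 or the lowest p in a cluster, *Ctcf*, *Smchd1*, *Wiz* and list genes with an unadjusted p under 0.05. Other genes are named after their values were seen. Members and lists were chosen with earlier results of these data known, and 1 gene of the partners is not reported here. Alternatives were edgeR's quasi-likelihood test, DESeq2 1.42.0, other scalings and filters, library weights, a replicate block, *Xist* settings and leaving out each library. On simulated counts of this comparison (18505 genes) limma-voom recovered 95% of 2-fold and 100% of 4-fold changes, and 5.80% of 207 calls were false. Recovery was not tested separately for genes at the low levels of many clustered protocadherins, so these percentages are not given for them. Precision depends on counting error at library totals of 11792463 to 14594230 fragments without molecular identifiers, and on the spread between 3 libraries per group.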

Additional observations from a re-analysis of the deposited data

How the results depend on the processing

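The count of clustered protocadherins with an adjusted p-value under 0.05 was 0 under all 16 alternatives. At an unadjusted p under 0.05 the 4 members became 0 with DESeq2, 2 in the 4 libraries without *Xist* and 1 to 4 when a library was left out, with 1 each without KO replicate 2, WT replicate 1 and WT replicate 2. Without KO replicate 3 the 4 members included 1 of the original 4 (*Pcdhac2*), and without WT replicate 3 they included 2 (*Pcdhac2* and *Pcdhga9*). Their median log2 fold change ranged from -0.0118 to 0.0818 when a library was left out. The fold change of *Pcdhac1* ranged from -0.3734 to 0.1063, that of *Pcdhgc4* from -0.3065 to 0.0245 and that of *Ctcf* from -0.0279 to 0.0840 when a library was left out, changing sign without WT replicate 3, KO replicate 3 and WT replicate 3. The other 12 named genes kept their direction under all alternatives, though not always their size. When a library was left out, *Pcdhgc3* ranged from 0.0379 to 0.1468 and *Pcdhgc5* from -0.1141 to -0.0218. *Pcdhgc5* was at -0.0045 in the 4 libraries without *Xist*. Over the length of all exons, the levels per kb of *Pcdhac2*, *Pcdhgc5*, *Pcdhgb8* and *Pcdha8* were 5.75, 14.6, 0.168 and 0.0602. By that length *Pcdhga11* and *Pcdhga6* were at 3.81 and 3.24, below *Pcdhb9* at 3.96. The highest alternate isoform then lay in the beta cluster, not in gamma A. The median gamma B gene was *Pcdhgb1* at 0.967 and the median beta gene *Pcdhb3* at 1.30, so gamma B and beta changed order. The 4 regulators and partners with an unadjusted p under 0.05 became 2 with DESeq2, 7 with a term for *Xist*, 1 in the 4 libraries without *Xist* and 0 (WT replicate 2) to 5 (WT replicate 3) without a library. Over all genes the adjusted count of 0 became 1 with DESeq2, 24 with a term for *Xist*, 3 in the 4 libraries without *Xist* and 0 to 1 without a library. The unadjusted count of 1492 became 902, 2030, 696 and 782 to 2239 under the same settings (830 without KO replicate 1, 782 without WT replicate 2 and 2239 without WT replicate 3). The cause of these shifts was not tested.

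Deviations of same-numbered libraries correlated at 0.320, 0.0772 and -0.0260, and those of libraries with different numbers at -0.250 to 0.224. The highest value was that of replicate 1, the libraries with *Xist*. So few values cannot show whether replicate numbers pair the samples, and the main fit used no pairing. With the replicate number as a block, 4 members (7.14%, beside 8.87% of all genes) had an unadjusted p under 0.05, 3 of them as without the block, and 2 regulators and partners did. *Pcdha4*, *Pcdhb1*, *Pcdha8* and *Pcdhgb8* had at most 13 fragments in a library, so counting error is largest for these.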
